A study of Oryza sativa with 7 samples.

Results

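OsbZIP76 is a basic leucine zipper transcription factor of rice, and the rows described here are the 79 genes whose transcripts stood at least 2 times higher in every osbzip76 mutant library than in any wild-type library. Members were chosen by their measured RPKM values in these libraries. A gene was a member if its lowest mutant value was at least 2 RPKM and at least 2 times the highest wild-type (WT) value. RPKM scales reads by gene model length and library total. Of the 35825 rows of the deposited table, 35304 with an identifier of the Rice Annotation Project (RAP) were eligible, and 79 met the rule (0.224%). The rule used all 6 libraries, so levels, fold differences and separation between mutants and WT are given as descriptions, with no test.

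The study collected caryopses of field-grown rice, cultivar Kitaake, at 2 days after fertilization. The mutants were osbzip76-1 (2 libraries) and osbzip76-2 (1 library), which are independent alleles of OsbZIP76, and WT had 3 libraries. The labels name 7 samples, and the first osbzip76-2 replicate is not analysed here. All groups shared the field and the hot season, in which cellularization had come early in mutant and WT grains alike, per the series description. The nature of each mutation is not given in the sources used here. The tissue label is caryopsis, while the extraction protocol speaks of endosperm.

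Factors of the basic leucine zipper family bind DNA as dimers, often at sites with an ACGT core. In the young cereal grain the endosperm first grows as a syncytium of free nuclei, and cell walls then form between the nuclei. OsbZIP76 and the NF-YB proteins named in the series title are tied to that transition. A whole caryopsis also holds maternal pericarp, nucellus and the embryo. In such bulk samples fewer cells of a type and less RNA per cell cannot be told apart.

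A RAP identifier gives the chromosome in its first digits and the order along it in the rest. The table does not pair these identifiers with gene names, and none of the 79 matched the RefSeq gene table (assembly ASM3414082v1). The members are therefore described by identifier, level, place and behaviour across libraries, and no function is given to any of them.

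Each library held 16898031 to 21108102 reads assigned to genes, with a read in 26910 to 29012 genes. WT replicate 2 stood apart: its score on the first principal component was 61.3, while the other 5 libraries lay between -30.5 and 2.97. Because of this, values with and without that library are given below where they differ.

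Together the members took up a larger part of each mutant library than of each WT library. Their RPKM values summed to 1782 and 1810 in osbzip76-1, 1711 in osbzip76-2, and 347, 260 and 369 in WT replicates 1 to 3. The groups did not overlap, as the rule fixes. Before any scaling for depth, members were assigned 40908 and 43258 reads in osbzip76-1, 45426 in osbzip76-2, and 8914, 5739 and 10042 in WT. No member was at 0 in a mutant library, as the rule fixes, and 6, 13 and 7 members were at 0 in WT replicates 1 to 3. Among the 17687 eligible rows with at least 2 RPKM in every mutant library, the members are those with the widest separation. The rule turned round asked for at least 2 RPKM in every WT library and every mutant value at most 0.5 of every WT value. It was met by 8 rows (0.0227%).

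**Figure D1:**
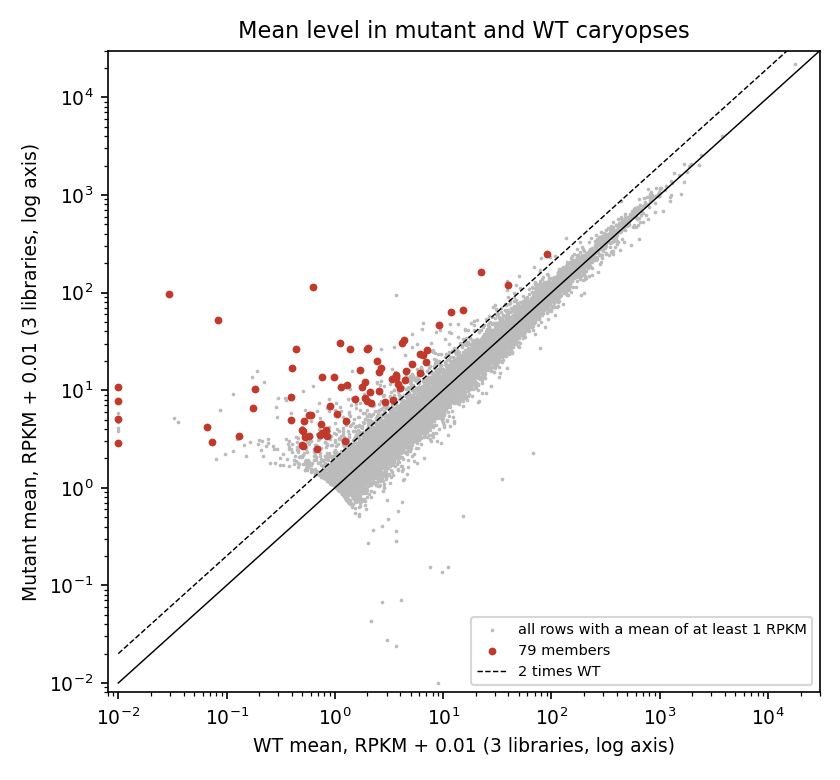
Mean RPKM over the 3 mutant libraries (vertical) against the mean over the 3 WT libraries (horizontal) for all rows tested (grey) and the 79 members (red), both axes logarithmic after adding 0.01. The members spread from a mutant mean of 2.49 to 249 RPKM, and 4 of them sit at the left edge because WT had no read.

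Most members were of moderate abundance in the mutants. Their mutant means ranged from 2.49 to 249 RPKM with a median of 10.9, close to the median of 9.58 RPKM over the 21454 rows tested (those with a mean of at least 1 RPKM). Their WT means ranged from 0 to 90.9 RPKM with a median of 1.29, against 9.72 over all rows tested. A WT mean under 1 RPKM was found for 34 of 79 members (43.0%), against 1.90% of all rows tested. The rule caps every WT value, so low WT means are not independent of the choice of members. Rows with such a WT mean were tested only where the mutant values raised their mean to at least 1 RPKM. The lowest mutant value was 2 to under 3 times the highest WT value in 39 members, 3 to under 5 times in 17, and at least 5 times, or above a WT of 0, in 23.

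The widest separation was found in genes that were nearly silent in WT. Os03g0115800 had 88.1 and 93.7 RPKM in the osbzip76-1 libraries and 110.4 RPKM in osbzip76-2, against 0.0580 RPKM in WT replicate 1 and 0 in both other WT libraries. All mutant libraries were high and alike, and WT was empty but for 2 reads. With 9075 reads in the mutants, the depth-corrected ratio was 5017, with an exact 95% binomial interval from 1388 to 41432 that covers counting error only. Os10g0569800 showed the same form, with 36.0 and 63.1 RPKM in the osbzip76-1 libraries and 58.9 RPKM in osbzip76-2, against 0, 0.0788 and 0.142 RPKM in WT. Its 1940 mutant reads and 3 WT reads put it 715 times higher by the same measure (interval 244 to 3470).

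No WT read at all was counted for 4 members, which are lower in level. Os07g0244100 had 10.9, 9.76 and 11.9 RPKM in the mutant libraries, Os10g0491100 had 8.46, 7.77 and 6.997 RPKM, and Os02g0660100 had 4.19, 5.08 and 5.75 RPKM, in the order osbzip76-1 replicates 1 and 2, then osbzip76-2. Os07g0248900 had 2.63, 3.16 and 2.88 RPKM in the same order. With WT set to a floor of 3 reads over the whole group, the ratios of these 4 genes were 200.5, 126, 70.8 and 220.0, in the order named. These ratios rest on the assumed floor and are not lower limits. The lower ends of the exact binomial intervals, for counting error only, were 162.5, 102.3, 57.0 and 178.4 in the same order. Over all rows tested, 9 were at 0 in every WT library.

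A further group had a trace in WT and a clear level in both alleles. Os02g0640800 had 28.5 and 29.4 RPKM in the osbzip76-1 libraries and 33.7 RPKM in osbzip76-2, against 0.946, 1.15 and 1.24 RPKM in WT. Its replicates were close in all groups, and the mutant mean was 30.5 ± 2.8 RPKM against a WT mean of 1.11 ± 0.15 RPKM (SD over 3 libraries each). Os03g0105500 had 8.31, 12.8 and 9.69 RPKM in the mutants against 0.354, 0.0690 and 0.0936 RPKM in WT, and Os04g0397800 had 3.95, 4.68 and 4.06 RPKM against 0.167, 0 and 0 RPKM. Os03g0299700 differed in that its mutant libraries were unequal, at 32.4 and 33.4 RPKM in the osbzip76-1 libraries and 13.1 RPKM in osbzip76-2, against 0.227, 0.555 and 0.502 RPKM in WT.

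**Figure D2:**
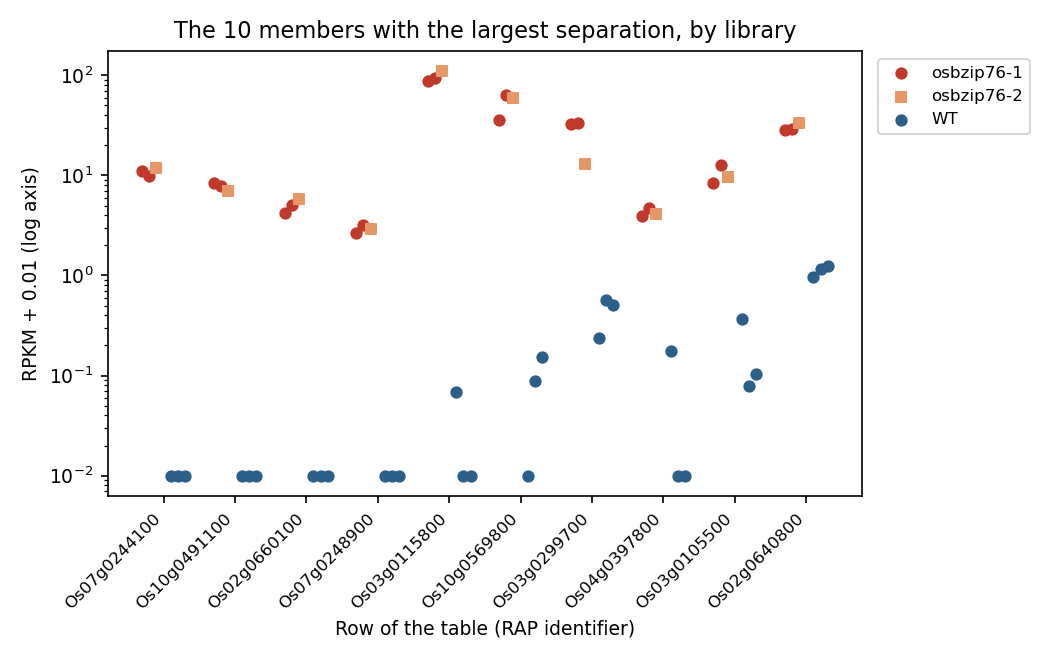
RPKM plus 0.01 on a log axis for the 10 members with the widest separation, 1 point per library, with osbzip76-1 as red circles, osbzip76-2 as orange squares and WT as blue circles. Every mutant point lies at or above 2.63 RPKM, and no WT point is above 1.24 RPKM.

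Abundance in the mutants did not go with 1 kind of WT level. Of the 10 members with the highest mutant means, Os03g0115800, Os10g0569800 and Os01g0537250 had WT means under 1 RPKM, and the others were clearly expressed in WT. Os03g0654800, the highest of the set, had 260 and 236 RPKM in the osbzip76-1 libraries and 253 RPKM in osbzip76-2, against 88.7, 95.8 and 88.1 RPKM in WT. The 3 WT libraries were alike, and the mutant mean was 2.74 times theirs. Os10g0443800 had 64.1 and 58.5 RPKM in the osbzip76-1 libraries and 75.7 RPKM in osbzip76-2, against 12.6, 17.0 and 16.2 RPKM in WT, and Os10g0155100 had 35.3, 32.3 and 31.3 RPKM against 3.58, 5.91 and 3.64 RPKM. WT replicate 2 was the highest WT library in all 3 of these genes. Os01g0917100 behaved otherwise, with 122 and 136 RPKM in the osbzip76-1 libraries and 100.9 RPKM in osbzip76-2, against 49.8, 19.4 and 49.6 RPKM in WT, where replicate 2 was low.

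Members at the limit of the rule were not separated by a gap from rows that missed it. The nearest inside were Os02g0135900, Os12g0634900 and Os02g0205500, whose lowest mutant values were 2.01, 2.02 and 2.02 times the highest WT value. The nearest outside were Os05g0559800, Os03g0673700 and Os04g0458800, at 1.998, 1.99 and 1.97 times. Ratios from 1.8 to under 2 were found in 25 rows. The rule was met by 128 rows when the osbzip76-2 library was left out and by 125 when WT replicate 3 was. A further 223 rows reached a ratio of 2 with a lowest mutant value above 0 but under 2 RPKM.

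The set did not lie in 1 part of the genome. Members were found on all 12 chromosomes, with 12 each on chromosomes 1 and 3 and 11 on chromosome 7. Chromosome 7 held 13.9% of the members and 7.69% of the eligible rows. Chromosome 6 held 1 member, or 1.27%, against 8.36% of the eligible rows.

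Of the 79 members, 12 lay in 5 runs, in which identifiers follow each other within 3 RAP rows of the table. On chromosome 3 a run joined Os03g0103800, Os03g0103950 and Os03g0104000. Os03g0103800 had 66.2 and 62.1 RPKM in the osbzip76-1 libraries and 59.2 RPKM in osbzip76-2, against 12.2, 10.3 and 13.1 RPKM in WT. Os03g0103950 had 15.6, 13.96 and 16.7 RPKM in the mutants against 3.04, 1.29 and 3.33 RPKM in WT, and Os03g0104000 had 50.5, 35.5 and 54.1 RPKM against 7.15, 11.3 and 8.75 RPKM. Their mutant means were 5.27, 6.05 and 5.16 times their WT means, similar factors at unlike levels. The tested rows within 5 identifiers of this run had log2 differences from -0.20 to 0.32.

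A second run of 3 lay on chromosome 12. Os12g0575300 had 18.7 and 38.2 RPKM in the osbzip76-1 libraries and 22.9 RPKM in osbzip76-2, against 1.48, 3.40 and 1.02 RPKM in WT. Os12g0575400, the next row, had 18.5, 38.5 and 23.3 RPKM against 2.33, 2.72 and 1.02 RPKM. The values of these neighbours were nearly equal in every mutant library, and reads shared between similar or overlapping gene models cannot be told apart in this table. Os12g0576100 had 2.46 and 7.52 RPKM in the osbzip76-1 libraries and 9.82 RPKM in osbzip76-2, against 0.145, 0 and 0.351 RPKM in WT. The tested rows within 5 identifiers of this run had log2 differences from -0.10 to 1.31, and 1 of these 6, Os12g0576600, passed limma.

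The remaining runs were pairs. On chromosome 3, Os03g0654700 stood next to Os03g0654800, the most abundant member. Os03g0654700 had 183 RPKM in both osbzip76-1 libraries and 122 RPKM in osbzip76-2, against 30.1, 6.74 and 29.97 RPKM in WT. The neighbours thus differed in WT replicate 2, which was low for Os03g0654700 and highest of WT for Os03g0654800. On chromosome 7 the pair was Os07g0248800 and Os07g0248900, chosen here after its values were seen. Os07g0248800 had 25.6, 25.8 and 27.3 RPKM in the mutants, against 1.39, 1.09 and 1.59 RPKM in WT.

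Most rows beside the members stood at similar levels in mutants and WT. Directly adjacent to a member, and not members themselves, were 147 rows. Those of them that were tested had a median log2 difference between mutants and WT of 0.04, against -0.02 over the RAP rows tested that were not members. The log2 difference exceeded 1 in 4 of the tested adjacent rows and in 251 of these 21143 non-member rows, from which the adjacent rows were not taken out. Not all of the 147 adjacent rows were tested, so the 4 are not to be read out of 147. The share over 1 was thus larger among the tested adjacent rows, and this difference in share was not tested. No adjacent row passed limma for both alleles against WT, while 27 of the non-member rows did. A neighbour that met the rule would have been a member, which keeps the strongest changes out of the count of adjacent rows. In the 103 rows from Os03g0103800 to Os03g0115800, which hold 5 members, the other tested rows had a median of -0.01 and a range from -0.62 to 0.80. In the 30 rows from Os07g0244100 to Os07g0249800, which hold 4 members, the median was -0.05 and the range -0.32 to 0.97. Both stretches were chosen after their values were seen.

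**Figure D3:**
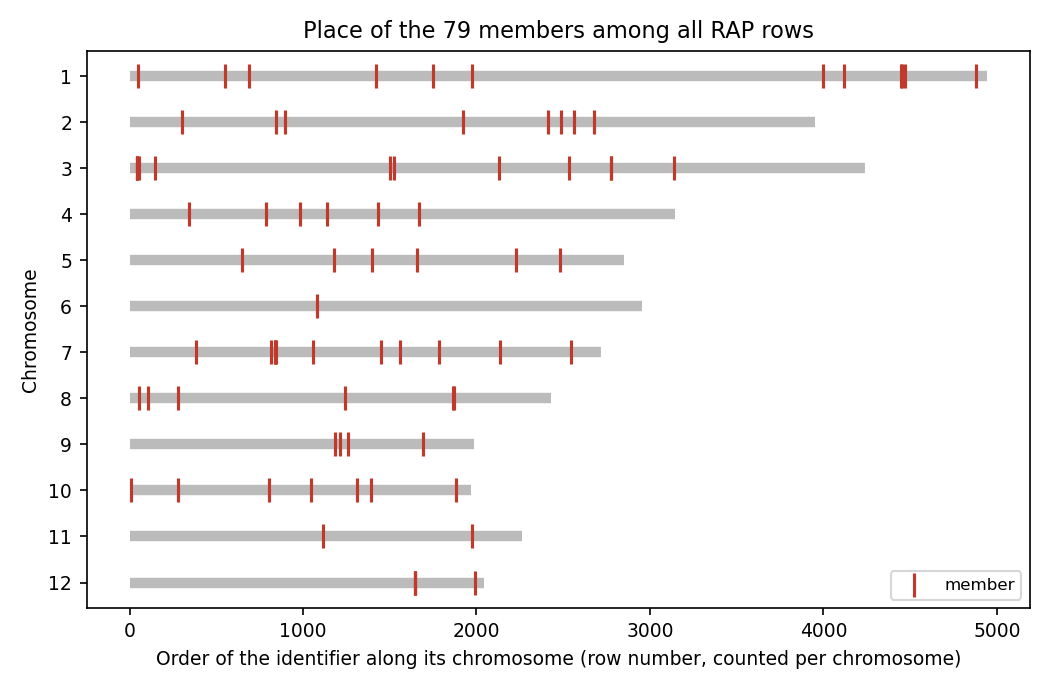
Place of the 79 members (red ticks) in the order of RAP identifiers along each of the 12 chromosomes (grey bars, whose length is the number of rows). Chromosome 3 has a cluster of ticks near its start, and chromosome 6 has 1 tick.

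The gene models of members were short in the median. Their median length, recovered from the steps of 1 read in the RPKM values, was 1062 bases with quartiles of 668 and 1490 bases. Over all rows tested the median was 1568 bases, with quartiles of 1047 and 2236 bases. Members rested on 116 to 15494 reads in the 3 mutant libraries together and on 0 to 3652 reads in WT. The rule and the filter of the rows tested both ask for a level per length, so a short row passes either with fewer reads. The cause of the shorter models was not tested.

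The alleles were compared with each other, a contrast that the rule did not set. The rule did require each of the same 3 mutant libraries to stand above WT, so the members' spread between alleles is not independent of their choice, and their counts are given beside those of all rows as a description. The median log2 difference of osbzip76-2 from osbzip76-1 was 0.02 over the members and 0.02 over all rows tested. In limma with Benjamini-Hochberg adjustment 1 of 79 members passed the threshold of 0.05, beside 46 of 21454 rows (0.214%). At an unadjusted limma p under 0.05 the count was 14 members, beside 1055 rows (4.92%). The osbzip76-2 value was above both osbzip76-1 values in 34 members (43.0%), against 39.3% of all rows tested, and below both in 26 members (32.9%), against 34.7%. The count of 46 rows became 0 when either osbzip76-1 library was left out, with 621 rows (first) and 782 rows (second) at an unadjusted limma p under 0.05. It became 8, 264 and 15 when WT replicates 1, 2 and 3 were left out in turn. These comparisons rest on 1 osbzip76-2 library, and a difference between alleles cannot be told apart from a deviation of that library.

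The member that passed was Os01g0537250. It had 5.40 RPKM in the osbzip76-2 library and 166 and 168 RPKM in the osbzip76-1 libraries, while WT had 0.349, 0.0746 and 1.42 RPKM. The osbzip76-1 libraries agreed closely and stood 31.2 times above the osbzip76-2 library at the most. The log2 difference of osbzip76-2 from osbzip76-1 was -4.72 (SE 0.44, limma adjusted p = 0.0202). The adjusted p ranged from 0.00109 to 0.695 over the alternatives. Leaving out WT replicate 1 gave a limma adjusted p of 0.0849, leaving out the first osbzip76-1 library gave 0.288 and leaving out the second gave 0.255, so the call did not hold without any 1 of these libraries. The log2 difference itself lay between -4.94 and -4.71 over all alternatives. With a pseudocount of 0.1 it was -4.93 and with voom on the recovered reads -4.94, and the call was lost in both settings.

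Other members that differed between the alleles by a factor of 2 or more did not pass. The osbzip76-2 value was over 2 times the osbzip76-1 mean in 7 members (8.86%), against 3.44% of all rows tested, and under 0.5 of it in 3 members (3.80%), against 0.993%. Os04g0348600 had 23.9 RPKM in osbzip76-2, against 4.61 and 4.10 RPKM in the osbzip76-1 libraries and 1.197, 0.311 and 1.90 RPKM in WT, with a limma adjusted p of 0.225 between the alleles. Os03g0601500 had 33.9 RPKM in osbzip76-2, against 11.2 and 6.04 RPKM in the osbzip76-1 libraries and 0.939, 0 and 0.248 RPKM in WT. Os02g0214500 had 16.4 RPKM in osbzip76-2, against 6.69 and 2.60 RPKM in the osbzip76-1 libraries and 0.448, 0.480 and 0.217 RPKM in WT. In all 3 genes the osbzip76-2 library was the highest of the 6, and they were chosen after their values were seen. Without WT replicate 2, limma called 264 rows and 4 members between the alleles, namely Os01g0537250, Os03g0299700, Os04g0348600 and Os11g0644900.

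**Figure D4:**
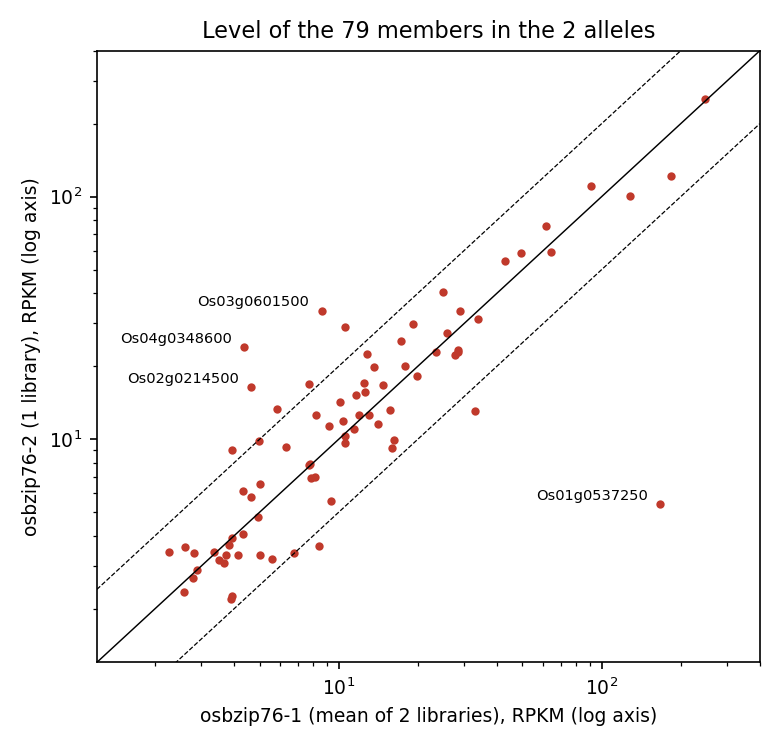
RPKM of the 79 members in the osbzip76-2 library (vertical) against the mean of the 2 osbzip76-1 libraries (horizontal), both on log axes, with lines at equality (solid) and at a factor of 2 either way (dashed). Os01g0537250 lies far below the lines at 5.40 against 167 RPKM, and Os04g0348600, Os02g0214500 and Os03g0601500 lie farthest above them.

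In many members the mutant libraries were unequal. The highest mutant value was within 1.5 times the lowest in 39 of 79 members (49.4%), against 76.6% of all rows tested. Low counts widen such ratios, and members had shorter gene models in the median. The part of counting error in this difference was not tested. Each mutant library was the lowest of the 3 in a similar number of members, namely 26 for osbzip76-1 replicate 1, 27 for osbzip76-1 replicate 2 and 26 for osbzip76-2.

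WT replicate 2 was low in many members. It lay under 0.5 of the mean of WT replicates 1 and 3 in 34 of 79 members (43.0%), against 8.72% of all rows tested. Its median ratio to the mean of the other WT libraries was 0.53 over the 75 members with a WT read and 0.95 over all rows tested. The rule caps every WT value, so this ratio is not independent of the choice of members and is given as a description. Low counts alone scatter such ratios, and their part was not tested. Rows of like WT level are given side by side, but members had shorter gene models in the median and so fewer reads at like RPKM. At a WT mean of 2 to 10 RPKM the ratio was under 0.5 in 9 of 26 members (34.6%) and in 9.97% of rows tested. At 0.5 to 2 RPKM it was under 0.5 in 14 of 30 members (46.7%) and in 26.7% of rows tested.

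Members differed in this respect. Os10g0501900, chosen after its values were seen, had 33.0, 16.9 and 40.6 RPKM in the mutants, against 5.18, 0.440 and 6.92 RPKM in WT. WT replicate 2 was far below both other WT libraries there. In Os01g0852800, also chosen after its values were seen, WT replicate 2 was highest of WT, at 1.37 RPKM beside 0.320 and 0.465 RPKM, and the mutants had 3.10, 4.20 and 3.10 RPKM. Without WT replicate 2 the rule was met by 86 rows, among them all 79, since leaving out a library can only add rows. The median of the mutant mean over the WT mean was 5.93 with all libraries and 4.95 against WT replicates 1 and 3 only, over members with WT above 0.

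**Figure D5:**
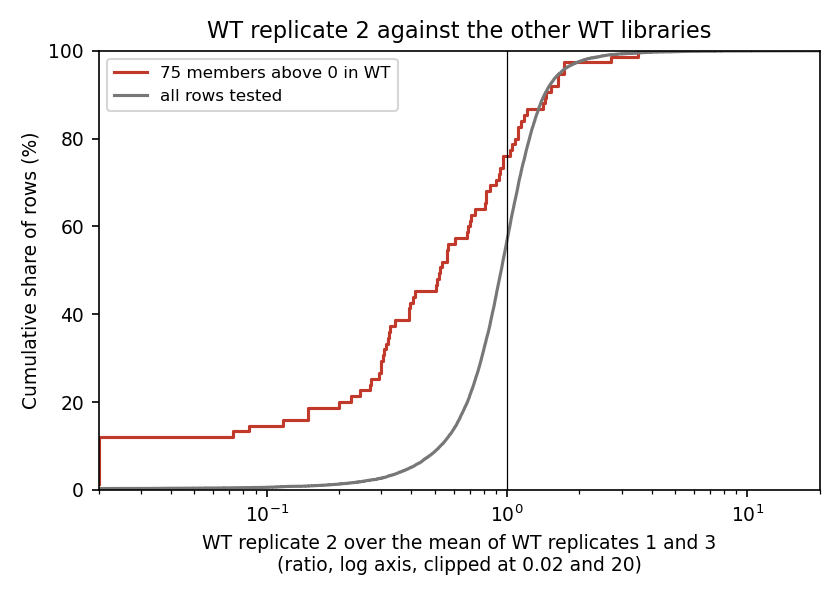
Cumulative share of rows (percent, vertical) by the ratio of WT replicate 2 to the mean of WT replicates 1 and 3 (log axis, clipped at 0.02 and 20) for the 75 members with a WT read (red) and all rows tested (grey). The red curve lies to the left, with a median of 0.53 against 0.95. The rule caps every WT value, so this ratio is not independent of the choice of members.

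Markers of grain tissues were read beside these results. Of the endosperm list of starch and storage genes, 5 of 20 were in the table by symbol, and their summed level was 434 to 448 RPKM in the mutants and 155 to 250.1 RPKM in WT, with WT replicate 2 lowest. AGPL2, which encodes a subunit of the enzyme that makes ADP-glucose for starch, differed most of the 5, with 193, 167 and 193 RPKM in the mutants, against 87.4, 37.9 and 81.6 RPKM in WT. AGPL1, of the same enzyme, had 10.9, 12.3 and 12.6 RPKM in the mutants, against 11.3, 15.9 and 9.66 RPKM in WT, and the groups overlapped. AGPS1, AGPS2 and RISBZ1 were higher in every mutant library than in any WT library. Their mutant means were 154, 84.1 and 4.90 RPKM, against WT means of 91.6, 41.7 and 2.44 RPKM. In limma 0 of these 5 endosperm genes passed in either direction, beside 83 of the 21454 rows tested. An unadjusted limma p under 0.05 was found for 4 of them, beside 2945 of the 21454 rows tested. None of the 9 genes of the maternal pericarp and nucellus list was found by symbol. Of the embryo list 1 of 8 was found, OSH1, a homeobox gene, with 4.11 to 7.56 RPKM in the mutants and 3.00 to 6.08 RPKM in WT. Of the 23 defence and stress genes 10 were found, all chitinase genes but WRKY71. They summed to 44.1 to 127 RPKM in the mutants and 48.7 to 90.0 RPKM in WT, so these sums overlapped. The log2 difference between mutants and WT was positive in 7 of the 8 tested, with a median of 0.75. In the endosperm list it was positive in 4 of 5, with a median of 0.78, and the median over all rows tested was -0.02. In limma 1 of the 8 passed, Cht7. No defining marker found in the endosperm and embryo lists was at 0 in any library. The part of such differences in the members' levels was not tested.

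The members' place in the comparison of both alleles with WT is given for completeness. In limma 46 of 79 passed the adjusted threshold, all higher, beside 64 rows higher of 21454 tested (0.298%), and the rule itself drew on that contrast. These counts moved with single libraries. Leaving out the first osbzip76-1 library gave 26 members among 40 rows called in either direction, and leaving out the second gave 21 among 34. Leaving out the osbzip76-2 library gave 37 members among 85 rows. Without WT replicates 1, 2 and 3 in turn the counts were 24 among 35, 52 among 108 and 23 among 39, beside 46 among 83 with all libraries.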

How the data were processed

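Poly(A) RNA of rice caryopses was sequenced. The authors deposited 1 table of RPKM values, per the file headers with a column for each of 6 libraries and a mean per genotype class. The mean columns equalled the library means within rounding and were not used further. The genome build was IRGSP 1.0, per the submitters' processing notes. The sources used here give no aligner, counter, strand setting or annotation version, so similar, overlapping and antisense genes can share reads.

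Each column was tied to its library by its header. The members and the lists were chosen with earlier results of these data known. Some rows are not reported here. Library totals, gene lengths and reads were recovered from the steps of 1 read in the RPKM values. Given 1 length per gene, 100% of 168975 values above 0 came out whole within 0.002 reads, with totals of 19900850 to 24887952 reads. Lengths are the smallest that give whole reads and can be too small for genes with few reads.

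Tests used limma 3.58.1 in R 4.3.3 on log2(RPKM + 1), a scale that understates changes of low genes, with a mean-variance trend, two-sided, for 21454 rows with a mean of at least 1 RPKM. A 3-group fit compared osbzip76-2 with osbzip76-1, and a 2-group fit compared both alleles with WT. In the 3-group fit the 1 osbzip76-2 library was assumed to vary like the others. The threshold was a Benjamini-Hochberg adjusted p of 0.05 over all rows tested. The replicates were biological, per the series description. The scripts were tested on simulated data. Named members were the 10 highest in the mutants, the 10 most separated, those called between alleles, the 3 leading runs, and the 3 nearest the limit on either side. Marker lists covered endosperm, maternal tissue, embryo, and defence and stress.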

Additional observations from a re-analysis of the deposited data

Results flagged for a closer look

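Os01g0537250 passed the limma test of the difference between the alleles (adjusted p = 0.0202), with 1 library in the osbzip76-2 arm. The call was lost in 6 of 10 alternatives, with an adjusted p from 0.00109 to 0.695 over all of them. Its log2 difference of osbzip76-2 from osbzip76-1 was -4.72, with 5.40 RPKM in the 1 osbzip76-2 library and 167 ± 1 RPKM in osbzip76-1 (SD, n = 2), against 0.613 ± 0.709 RPKM in WT (SD, n = 3). It was lower in osbzip76-2 than in both osbzip76-1 libraries, and above all WT libraries in all 3 mutant libraries, as the rule requires. Whether the allele or that single library carries the difference cannot be told apart.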

How the results depend on the processing

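The set held 79 rows under the rule as stated and 185 at 1.5-fold, 40 at 3-fold, 50 at a minimum of 5 RPKM and 506 when group means replaced the extremes. Leaving out 1 library gave 86 to 128 rows, always with all 79 among them by construction. Median-ratio scaling gave 89 rows and a minimum of 1 RPKM gave 108. Between osbzip76-2 and osbzip76-1, limma called 46 rows and 1 member. The counts were 2 rows and 0 members with a pseudocount of 0.1, 179 and 0 without a filter on low values, 7 and 0 with voom on recovered reads, and 130 and 3 in the mutant libraries alone. Where limma or voom called 0 members in these settings, 8, 11 and 6 members had an unadjusted p under 0.05, in the order named, beside 982, 2497 and 953 of all rows. Leaving out 1 library gave 0 to 264 rows and 0 to 4 members. For both alleles against WT, 83 rows and 46 members became 52 and 26 without a filter, and leaving out 1 library gave 34 to 108 rows and 21 to 52 members. With the replicate number as a block they became 32 and 20. Same-numbered libraries did not all deviate together from their group means (correlations of 0.22, -0.33 and 0.37). The mutant deviations mix replicate with allele, and WT replicate 2 stood apart within WT. These correlations therefore cannot decide whether same-numbered libraries share more than a number. No paired fit was possible between the alleles, which share 1 number here. The cause of these differences was not tested. Among the named members' differences, 31 settings lost and 7 gained a call, and none changed direction with a call. Depth limits members with few WT reads, whose ratios have wide counting intervals.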

Other observations

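Of the 341 rows that the table names by something other than a RAP identifier, 2 met the same limits of level and fold and were not members for want of such an identifier. DOF3, a DOF zinc finger transcription factor gene, had 53.9 and 49.3 RPKM in the osbzip76-1 libraries and 39.7 RPKM in osbzip76-2, against 18.1, 7.57 and 15.1 RPKM in WT. The lowest mutant library stood above the highest WT library by more than the spread within either group, and WT replicate 2 was the lowest of the 6. Cht7, a chitinase gene, had 2.97 and 2.25 RPKM in the osbzip76-1 libraries and 3.41 RPKM in osbzip76-2, against 0.350, 0 and 0.339 RPKM in WT, a low level in all libraries.

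Beside the run of members on chromosome 12, Os12g0576600 had 9.83 and 11.2 RPKM in the osbzip76-1 libraries and 9.04 RPKM in osbzip76-2, against 2.71, 3.11 and 4.71 RPKM in WT, just short of the limit. It passed limma for both alleles against WT. It was chosen after its values were seen.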
